A study of Mus musculus with 35 samples.

Results

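The genes described here make up, or mark the cells that make, the fibrous scaffold of the mouse lung. They are 36 named genes for collagens, elastic fibre proteins, crosslinking enzymes, other matrix proteins, and the receptors, ligands and transcription factors of lung fibroblasts. A gene was kept if a probe set of the array carried its symbol and no other, and where several did, the one with the highest mean over all arrays stood for the gene. This gave values for 35 of the 36, out of 19938 genes measured in all. The exception is Loxl2, a lysyl oxidase-like enzyme, which lay only on a probe set with several symbols.

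Total RNA of lavaged lungs from adult male C57BL/6J mice was measured on 35 Affymetrix arrays, 1 per animal, to ask how inhaled carbon dioxide alters injury of the lung by the ventilator. Every ventilated mouse was ventilated for 3 h. High stretch hypercapnia (10 mice) was ventilation at a tidal volume of 35 to 40 mL/kg with a peak pressure of 27 cmH2O, a positive end-expiratory pressure of 0 and 30 to 35 breaths per minute, with an inspired oxygen fraction of 0.75 and an inspired CO2 fraction of 0.12. High stretch normocapnia (10 mice) had the same settings with a CO2 fraction of 0. Low stretch hypercapnia (5 mice) was ventilation at 10 mL/kg and 135 breaths per minute, with 2 cmH2O held at the end of expiration, on room air with a CO2 fraction of 0.12. Low stretch normocapnia (5 mice) had those settings on room air alone. Non-ventilated mice (5) breathed room air spontaneously. High and low stretch thus differed in tidal volume, end-expiratory pressure, rate and oxygen together, and these cannot be told apart.

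Lung fibroblasts build and renew the matrix that holds the alveoli open. Fibrillar collagens resist tension, elastic fibres give recoil, and lysyl oxidases join the chains of both outside the cell. Alveolar fibroblasts carry Tcf21, Pdgfra and Itga8 and support the neighbouring epithelium with growth factors such as Fgf10 and Wnt2, while adventitial fibroblasts around vessels and airways carry Pi16, Dpt and Col14a1.

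The values are deposited log2 signals, and levels are compared for each gene across mice, not between genes. The array medians lay between 6.96 and 7.05, and 30 of the 35 measured genes lay above the median gene level. Those below it were Lum, Frem1, Fgf10, Wnt2 and Pi16. Frem1 averaged 7.02 and Fgf10 7.20 over all arrays, with 43.5% and 46.2% of genes at a lower mean. A gene passed where the Benjamini-Hochberg adjusted p of limma, over all genes, was under 0.05. Of the 35 genes, 11 passed in at least 1 of the 6 comparisons and 24 in none. The share of all genes passing in at least 1 comparison was not counted, so the 11 cannot be read as an excess. In single comparisons, 0% to 18.3% of all genes passed. The genes and lists were chosen with earlier results of these data known. Shares set beside those of all genes below are therefore descriptive and do not test an excess. Those 11 were the crosslinking enzymes Lox and Loxl1, the regulators Fgf10, Tcf21 and Meox2, the receptor chains Fgfr4 and Itga8, the secreted proteins Frem1 and Olfml1, the enzyme Inmt and, of the 10 collagen chains, Col14a1 in 1 comparison. The 10 alveolar epithelial markers summed to 15.81 to 15.95 across the arrays. This and every summed level below is the log2 of the added linear signals. The brightest genes of a list weigh most in it, so a steady sum can hide falls of dimmer markers.

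The promoters of Frem1, Olfml1 and Meox2 are shown because these genes had the largest falls with high stretch in normocapnia. Each run is the 250 bases before the annotated start, 5' to 3' on the gene's own strand, from RefSeq (build GRCm38.p6): chr4:83052167-83052416 on the minus strand for Frem1, chr7:107567183-107567432 on the plus strand for Olfml1 and chr12:37108290-37108539 on the plus strand for Meox2. RefSeq's table held promoters for 25 of the 35 genes and listed 2 for Frem1, of which the one at the gene's outer end is given.
Frem1: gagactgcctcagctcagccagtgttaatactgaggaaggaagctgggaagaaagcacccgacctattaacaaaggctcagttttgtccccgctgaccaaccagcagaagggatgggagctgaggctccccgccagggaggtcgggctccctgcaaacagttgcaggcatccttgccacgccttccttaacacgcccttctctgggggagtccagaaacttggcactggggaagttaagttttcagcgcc
Olfml1: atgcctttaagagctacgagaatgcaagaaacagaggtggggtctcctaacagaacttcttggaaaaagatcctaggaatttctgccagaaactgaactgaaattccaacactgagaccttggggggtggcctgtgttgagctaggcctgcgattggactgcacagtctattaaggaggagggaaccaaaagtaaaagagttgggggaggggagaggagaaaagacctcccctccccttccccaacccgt
Meox2: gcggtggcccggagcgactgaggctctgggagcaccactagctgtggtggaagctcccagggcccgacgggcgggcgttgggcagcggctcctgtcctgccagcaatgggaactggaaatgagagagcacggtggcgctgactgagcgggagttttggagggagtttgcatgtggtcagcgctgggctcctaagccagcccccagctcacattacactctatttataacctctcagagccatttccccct
Windows of 300 bases, these runs plus the next 50, were searched on both strands for the AP-1 motif TGANTCA, the TEAD motif GGAATG and a CArG box. No match was found in the 3 windows, so no base is capitalised. Among all 32851 promoters in the table, 7.81% held the AP-1 motif, 14.7% the TEAD motif and 1.63% a CArG box.

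**Figure D1:**
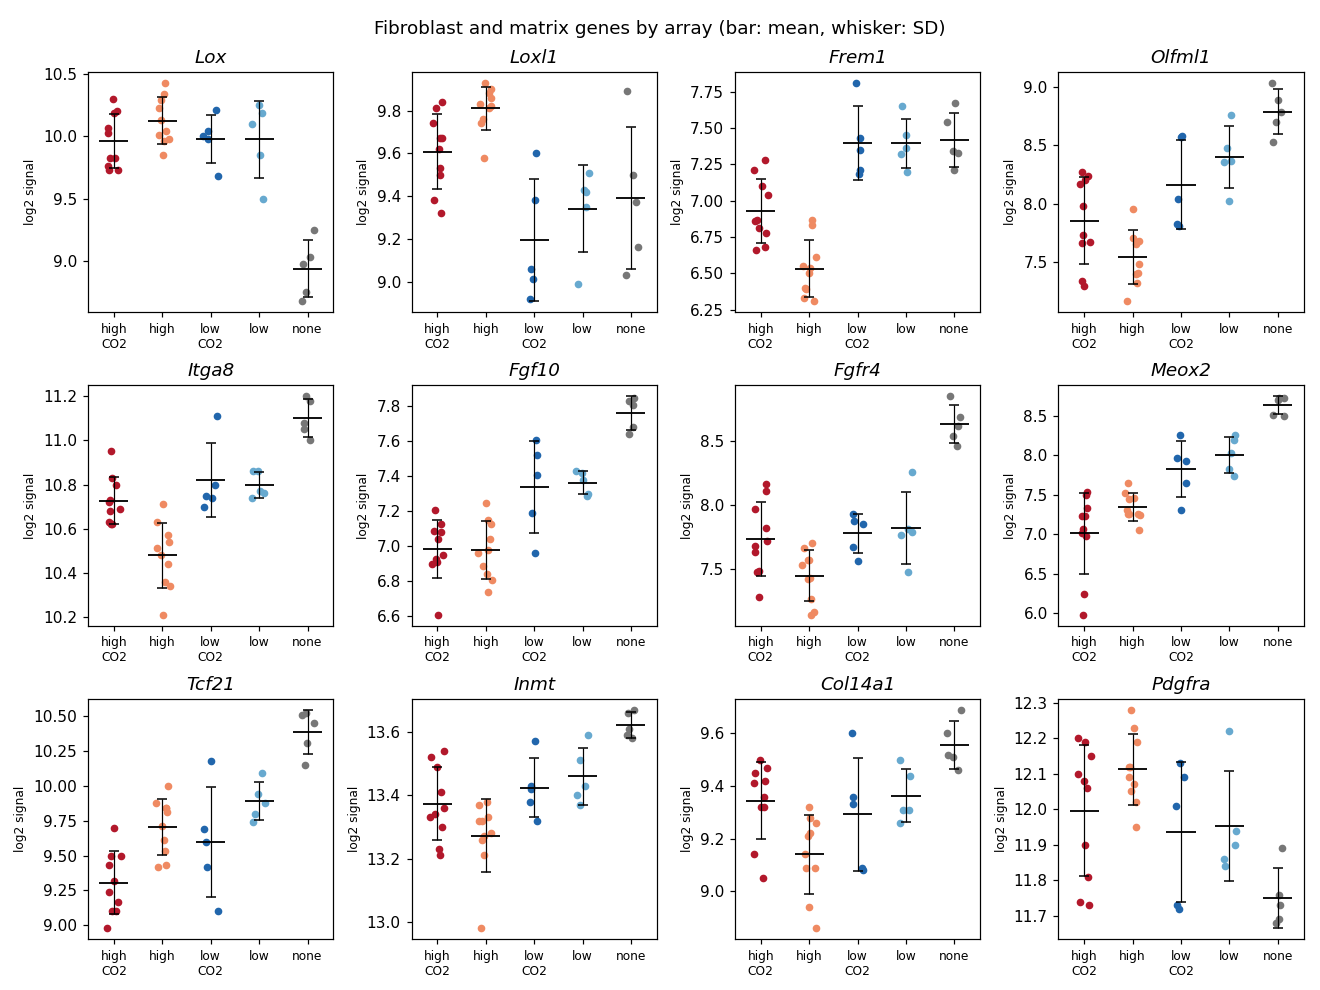
Log2 signal of 12 genes on every array, with groups from left to right as high stretch hypercapnia, high stretch normocapnia, low stretch hypercapnia, low stretch normocapnia and non-ventilated; points are arrays, bars the group mean and whiskers the SD (10, 10, 5, 5 and 5 mice). Lox is lower in the non-ventilated mice than in all ventilated groups, and Frem1 is lowest in high stretch normocapnia.

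The first comparison asks what changed with mechanical ventilation at low stretch without added CO2, as low stretch normocapnia against no ventilation. Anything else that set the ventilated mice apart from the non-ventilated ones cannot be told apart from ventilation itself. One collagen crosslinker rose and 5 regulators and receptors of fibroblasts fell, while no collagen and no elastic fibre protein passed. In numbers, 6 of 35 genes passed (17.1%), against 11.8% of all genes. One rose (2.86%, against 6.63% of all genes) and 5 fell (14.3%, against 5.17%). The median change was -0.11 over the 35 genes and -0.01 over all genes. The lungs were measured whole, so fewer fibroblasts and less RNA per fibroblast cannot be told apart.

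Lox, the enzyme that starts the crosslinking of collagen and elastin, had 9.85, 10.25, 9.50, 10.10 and 10.19 in low stretch normocapnia, against 8.75, 8.68, 9.03, 9.25 and 8.98 in non-ventilated mice. Every ventilated mouse of this comparison was above every non-ventilated one. The change was 1.04 ± 0.13 (SE), or 2.06-fold higher, with an adjusted p of 1.07e-06 (limma). The other ventilated groups averaged 9.97 ± 0.21 (high stretch hypercapnia, SD, n = 10), 10.13 ± 0.19 (high stretch normocapnia, n = 10) and 9.98 ± 0.19 (low stretch hypercapnia, n = 5). Neither stretch nor CO2 passed for Lox, the adjusted p being 0.471 for high stretch in normocapnia and 0.417 for CO2 at high stretch.

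Fgfr4, a fibroblast growth factor receptor, had 7.81, 7.79, 8.26, 7.76 and 7.47 in low stretch normocapnia, against 8.69, 8.85, 8.54, 8.46 and 8.62 in non-ventilated mice. These groups did not overlap, and the fall was 1.76-fold (change -0.81 ± 0.14, adjusted p = 9.59e-05). Fgf10, the growth factor through which mesenchyme signals to epithelial Fgfr2, had 7.29, 7.42, 7.43, 7.38 and 7.30 in low stretch normocapnia, against 7.68, 7.81, 7.83, 7.64 and 7.85 in non-ventilated mice. It too was lower in every ventilated mouse, 1.32-fold (change -0.40 ± 0.10, adjusted p = 0.00744). Fgfr2, the receptor of Fgf10, is not among the 35 genes and fell alongside by 0.29 (adjusted p = 0.0124).

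Itga8, the integrin chain that binds nephronectin, had 10.77, 10.74, 10.86, 10.86 and 10.76 in low stretch normocapnia, against 11.05, 11.00, 11.20, 11.08 and 11.18 in non-ventilated mice. The groups did not overlap, and the change was -0.30 ± 0.08 (1.24-fold lower, adjusted p = 0.00765). Its ligand nephronectin, Npnt, changed by -0.11 and did not pass.

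Tcf21, a transcription factor of the fibroblast lineage, had 10.09, 9.88, 9.80, 9.74 and 9.94 in low stretch normocapnia, against 10.15, 10.31, 10.52, 10.45 and 10.51 in non-ventilated mice. Meox2, a homeobox transcription factor of mesenchyme, had 8.19, 7.73, 8.25, 7.82 and 8.03 in low stretch normocapnia, against 8.72, 8.51, 8.70, 8.50 and 8.72 in non-ventilated mice. For both factors every ventilated mouse was below every non-ventilated one. The changes were -0.50 ± 0.14 for Tcf21 (1.41-fold lower, adjusted p = 0.0152) and -0.62 ± 0.20 for Meox2 (1.54-fold lower, adjusted p = 0.0372). The call for Meox2 was lost on leaving out any 1 of low stretch normocapnia replicates 2, 4 and 5 or non-ventilated replicates 1, 2, 3 and 5, with adjusted p between 0.0532 and 0.101.

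Among all genes, 4.65% were higher without overlap of the groups and 3.54% lower. Of the 35, 2 were higher without overlap, Lox and Fn1, and 5 lower, the 5 that fell. Fn1, the adhesive glycoprotein fibronectin, had 11.62, 11.77, 11.65, 11.52 and 11.85 in low stretch normocapnia, against 11.45, 11.37, 11.46, 11.39 and 11.48 in non-ventilated mice. Its change of 0.25 ± 0.09 did not pass (adjusted p = 0.0823). The 29 genes that did not pass had changes between -0.40 and 0.25, and the lowest adjusted p among them was 0.0783, for the growth factor Wnt2 (change -0.40). Wnt2 passed on leaving out non-ventilated replicate 4 (change -0.51, adjusted p = 0.0208).

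Among 27 other regulators of lung mesenchyme, 12 fell (44.4%, against 5.17% of all genes), 15 did not pass and none rose. The 12 include the epithelial receptor Fgfr2, so this share is not that of genes of mesenchymal cells alone. The falls were led by the forkhead factor Foxf2 (-0.74, adjusted p = 4.97e-06) and the hedgehog receptor Ptch1 (-0.64, adjusted p = 0.000559). Of 17 genes of TGF-beta signalling, 8 fell (47.1%, against 5.17% of all genes) and 3 rose (17.6%, against 6.63%). The falls were led by the inhibitory SMADs Smad6 (-1.10) and Smad7 (-0.74). Of 19 small leucine-rich proteoglycans and matricellular genes, 3 rose (15.8%, against 6.63% of all genes) and 1 fell (5.26%, against 5.17%). The largest rises were in the proteoglycan Vcan (2.12, or 4.33-fold) and the adhesion protein Tgfbi (0.98).

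Of 24 genes that modify, fold or turn over collagen, 3 rose (12.5%, against 6.63% of all genes) and none fell. The rises were led by the membrane metalloproteinase Mmp14 (0.37) and the prolyl hydroxylase P4ha2 (0.26). None of 18 other collagen chains passed. Of 12 other elastic fibre genes, Emilin2 rose by 1.00 (8.33%, against 6.63% of all genes) and Ltbp3 fell by 0.24 (8.33%, against 5.17%). Of 21 basement membrane genes and integrin partners, 2 fell (9.52%, against 5.17% of all genes), Frem2 (-0.30) and Itga1 (-0.23). Of 18 other fibroblast markers, 4 fell (22.2%, against 5.17% of all genes) and none rose. The largest falls were those of the alarmin Il33 (-0.87) and the growth factor Bmp3 (-0.49). Alveolar epithelium also makes Il33, so its fall cannot be assigned to fibroblasts.

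Markers of other cells moved in the same comparison. Of 10 neutrophil markers 8 rose (80%, against 6.63% of all genes), led by Mmp8 (4.21) and Retnlg (3.50). Their summed level was 13.41 to 14.23 in low stretch normocapnia, against 10.49 to 12.82 in non-ventilated mice. Of 9 endothelial markers 5 fell (55.6%, against 5.17% of all genes), led by Egfl7 (-0.72) and Kdr (-0.71). Their summed level was 14.29 to 14.40 in low stretch normocapnia, against 14.56 to 14.67 in non-ventilated mice. These neutrophil and endothelial sums did not overlap between the groups.

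Among all genes, 5.17% fell. All 7 B cell markers (100%) fell, led by Ms4a1 (-1.45) and Fcer2a (-1.41), with a summed level of 9.43 to 10.03 in low stretch normocapnia, against 10.74 to 11.39 in non-ventilated mice. Mesothelial markers fell in 2 of 8 (25%), Bnc1 (-0.77) and Rspo1 (-0.33), with sums of 12.44 to 12.63 in low stretch normocapnia, against 12.53 to 12.69 in non-ventilated mice. Of 11 smooth muscle and pericyte markers Notch3 (9.09%) fell (-0.26), with sums of 12.97 to 13.19 in low stretch normocapnia, against 13.18 to 13.31 in non-ventilated mice. Of 10 alveolar epithelial markers 2 (20%) fell, Rtkn2 (-0.43) and Lamp3 (-0.18), with sums of 15.84 to 15.95 in low stretch normocapnia, against 15.91 to 15.95 in non-ventilated mice. The other fibroblast markers summed to 14.79 to 14.92 in low stretch normocapnia, against 14.87 to 15.01 in non-ventilated mice. None of 10 macrophage markers passed. The part of these cells in the changes of the fibroblast and matrix genes was not tested.

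**Figure D2:**
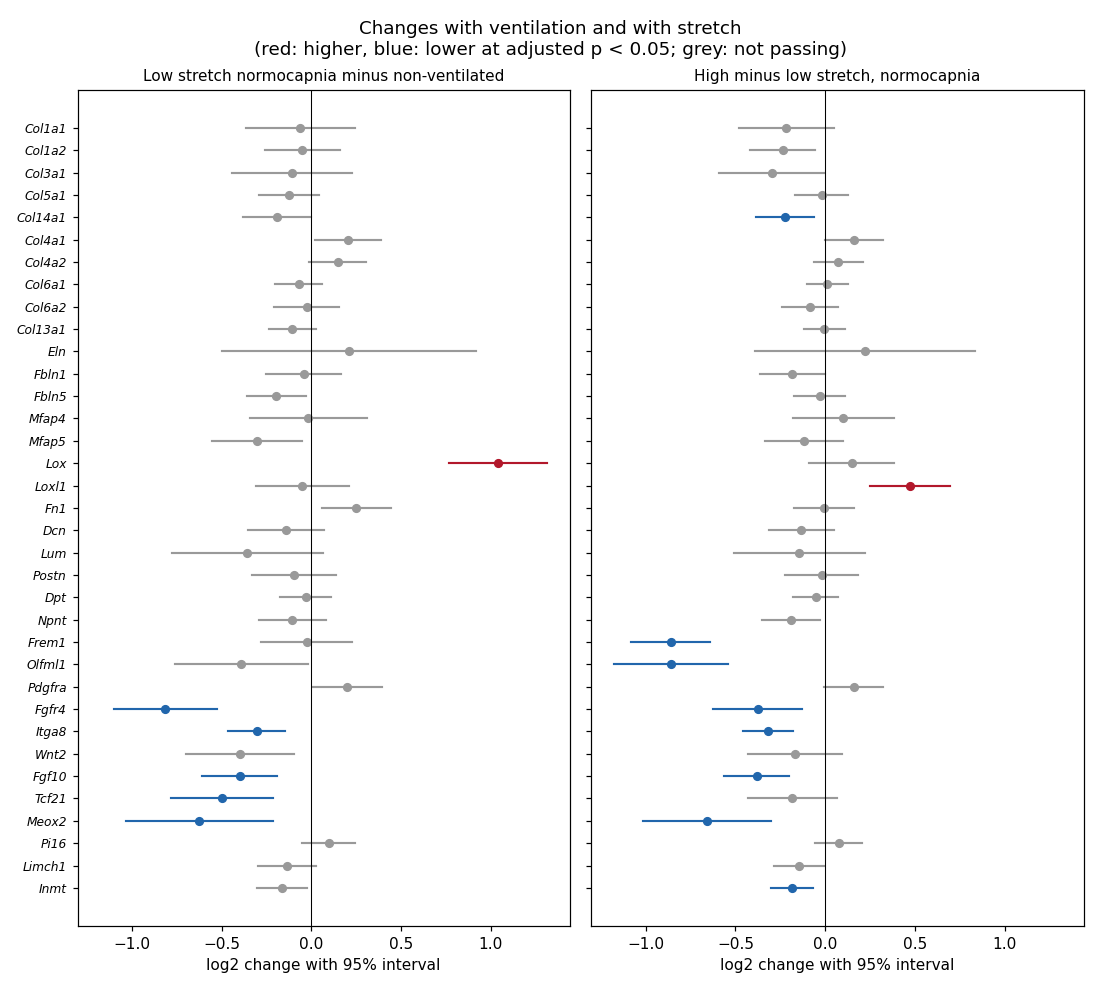
Log2 change of each of the 35 genes with its 95% confidence interval from limma for low stretch normocapnia against non-ventilated, and for high against low stretch in normocapnia; red points passed higher, blue points passed lower and grey points did not pass. Lox stands at 1.04 for ventilation, and Frem1 and Olfml1 at -0.86 for stretch.

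The second comparison asks what high stretch added to low stretch, both in normocapnia. One crosslinking enzyme of elastic fibres rose, and 8 genes fell, among them a linker of the basement membrane, a secreted olfactomedin-like protein, a growth factor and a growth factor receptor, an integrin chain and 1 collagen. With 9 genes passing, 25.7% of the 35 passed, against 18.3% of all genes. The 1 rise is 2.86%, against 8.72% of all genes, and the 8 falls are 22.9%, against 9.56%. The median change was -0.13 over the 35 genes and -0.02 over all genes. Low stretch normocapnia arrays also served in the comparison with non-ventilated mice, so a gene's changes in these comparisons are not independent of each other.

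Loxl1, a lysyl oxidase-like enzyme that acts on elastin, lay between 9.58 and 9.93 with a median of 9.82 in high stretch normocapnia, against 8.99, 9.35, 9.42, 9.43 and 9.51 in low stretch normocapnia. All 10 high stretch mice were above all low stretch mice, with a change of 0.47 ± 0.11 (1.39-fold higher, adjusted p = 0.0021). Non-ventilated mice averaged 9.39 ± 0.33 (n = 5), and low stretch ventilation alone had changed Loxl1 by -0.05 (adjusted p = 0.887). Lox, by contrast, had a change of 1.04 with ventilation and 0.15 with stretch.

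Frem1, an extracellular protein of the Fraser complex that anchors epithelium to the tissue beneath, lay between 6.31 and 6.87 with a median of 6.52 in high stretch normocapnia, against 7.36, 7.20, 7.65, 7.45 and 7.32 in low stretch normocapnia. The groups did not overlap, and the fall was 1.82-fold (change -0.86 ± 0.11, adjusted p = 4.29e-07). Non-ventilated mice had 7.21, 7.67, 7.33, 7.34 and 7.54, and low stretch ventilation alone changed Frem1 by -0.02 (adjusted p = 0.947). Olfml1, a secreted olfactomedin-like protein, lay between 7.16 and 7.95 with a median of 7.57 in high stretch normocapnia, against 8.48, 8.37, 8.76, 8.36 and 8.02 in low stretch normocapnia. Here too the groups did not overlap (change -0.86 ± 0.16, 1.81-fold lower, adjusted p = 0.000143).

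Meox2 lay between 7.05 and 7.65 with a median of 7.29 in high stretch normocapnia, against the low stretch normocapnia values of 7.73 to 8.25. The groups did not overlap, and the fall was 1.58-fold (change -0.66 ± 0.17, adjusted p = 0.0064). Fgf10 lay between 6.74 and 7.25 with a median of 6.97 in high stretch normocapnia, against 7.29 to 7.43 in low stretch normocapnia. Again no value was shared (change -0.38 ± 0.09, 1.30-fold lower, adjusted p = 0.00201). Fgfr2 fell by 0.29 (adjusted p = 0.00198).

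Itga8 lay between 10.21 and 10.71 with a median of 10.49 in high stretch normocapnia, below all low stretch normocapnia values of 10.74 to 10.86. Its change was -0.32 ± 0.07 (1.25-fold lower, adjusted p = 0.000828). Fgfr4 lay between 7.14 and 7.70 with a median of 7.48, against 7.47 to 8.26 in low stretch normocapnia, with overlap and a change of -0.38 ± 0.12 (adjusted p = 0.0261). Inmt, a methyltransferase abundant in lung, averaged 13.27 ± 0.12 in high stretch and 13.46 ± 0.09 in low stretch normocapnia (change -0.18 ± 0.06, adjusted p = 0.0231). Col14a1, a collagen that sits on the surface of fibrils, averaged 9.14 ± 0.15 in high stretch and 9.37 ± 0.10 in low stretch normocapnia (change -0.22 ± 0.08, adjusted p = 0.0458).

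The calls of Fgfr4, Inmt and Col14a1 each depended on single arrays. Without low stretch normocapnia replicate 3 the adjusted p was 0.171 for Fgfr4, 0.0717 for Inmt and 0.159 for Col14a1, and without replicate 1 of that group it was 0.0922 for Inmt. Col14a1 also missed the threshold on leaving out replicate 1, 2 or 5 of low stretch normocapnia or replicate 1, 5, 7, 9 or 10 of high stretch normocapnia, with adjusted p between 0.0582 and 0.105. Among all genes, 3.73% were higher without overlap of the groups and 2.85% lower. Of the 35 genes, 1 was higher (Loxl1) and 5 lower (Frem1, Olfml1, Meox2, Fgf10 and Itga8).

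The 26 genes that did not pass had changes between -0.30 and 0.22, and the lowest adjusted p among them was 0.0604, for the collagen chain Col1a2 (change -0.24). Col1a2 passed on leaving out high stretch normocapnia replicate 2, 6 or 9 or low stretch normocapnia replicate 1, with adjusted p between 0.0356 and 0.0498. Col3a1 (-0.30, adjusted p = 0.162) and Npnt (-0.19) passed without low stretch normocapnia replicate 1, at 0.0453 and 0.0144.

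Of 18 other fibroblast markers, 8 fell (44.4%, against 9.56% of all genes) and 1 rose (5.56%, against 8.72%). The rise was Il33, an alarmin that alveolar epithelium also makes, up by 1.33 or 2.52-fold (adjusted p = 5.15e-08), and the largest fall was Adh1, an alcohol dehydrogenase (-0.79, adjusted p = 0.000708). Of 17 TGF-beta signalling genes, 6 rose (35.3%, against 8.72% of all genes) and 1 fell, led by the nuclear repressor Tgif1 (0.56) and Pmepa1, a feedback inhibitor of the pathway (0.52). Of 19 small leucine-rich proteoglycans and matricellular genes, 5 fell (26.3%, against 9.56% of all genes) and 1 rose (5.26%, against 8.72%). The rise was tenascin C, Tnc (1.06, or 2.08-fold), and osteomodulin, Omd, had the largest fall (-0.43). The share of each list that passed is plotted with the shares of all genes.

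Among all genes, 8.72% rose and 9.56% fell. Of 21 basement membrane genes and integrin partners, 4 rose (19%) and 3 fell (14.3%), led by the fibronectin receptor chain Itga5 (0.71) and the laminin chain Lama4 (-0.41). The other regulators of lung mesenchyme had 3 rises (11.1%) and 3 falls (11.1%) among 27, with the hedgehog-binding protein Hhip at -0.55 and the growth factor Pdgfb at 0.42. Of 18 other collagen chains, Col12a1 (5.56%) rose (0.42), and of 12 other elastic fibre genes, the microfibril protein Mfap2 (8.33%) fell (-0.36). None of the 24 genes that modify, fold or turn over collagen passed.

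Where 9.56% of all genes fell, 1 of 11 smooth muscle and pericyte markers (9.09%) did (Myh11, -0.31). Their summed level was 12.82 to 13.08 in high stretch normocapnia, against 12.97 to 13.19 in low stretch normocapnia. Of 8 mesothelial markers Upk1b (12.5%) fell (-0.31), with sums of 12.16 to 12.66 in high stretch normocapnia, against 12.44 to 12.63 in low stretch normocapnia. Of 9 endothelial markers Tek (-0.32) and Cdh5 (-0.14) fell (22.2%), with sums of 14.14 to 14.39 in high stretch normocapnia, against 14.29 to 14.40 in low stretch normocapnia. These sums overlapped between the groups. Of 10 alveolar epithelial markers Rtkn2 (-0.60) and Abca3 (-0.23) fell (20%), with sums of 15.83 to 15.92 in high stretch normocapnia, against 15.84 to 15.95 in low stretch normocapnia. B cell markers rose in 5 of 7 (71.4%, against 8.72% of all genes), led by Fcer2a (0.58) and Cd79a (0.49). Their sums were 9.87 to 10.39 in high stretch normocapnia, against 9.43 to 10.03 in low stretch normocapnia. No neutrophil or macrophage marker passed. The summed level of the other fibroblast markers was 14.67 to 14.78 in high stretch normocapnia, against 14.79 to 14.92 in low stretch normocapnia. These ranges shared no value but all but touched, and how often such sums separate was not counted. In hypercapnia the same sums overlapped. For the 35 genes the sums overlapped, at 15.58 to 15.74 in high stretch normocapnia and 15.66 to 15.83 in low stretch normocapnia. The part of any of these cells in the changes was not tested.

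**Figure D3:**
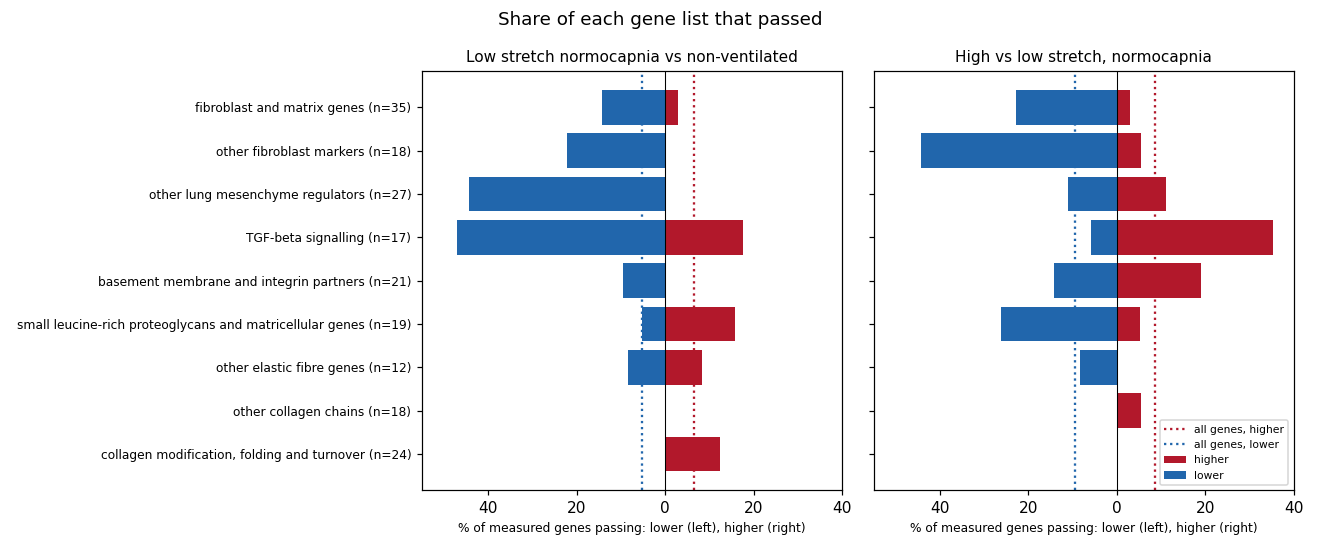
Share of the measured genes of each list that passed, higher to the right and lower to the left of 0, for low stretch normocapnia against non-ventilated and for high against low stretch in normocapnia; dotted lines are the shares among all genes. Of 18 other fibroblast markers, 8 fell with stretch and 1 rose.

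The third comparison asks what CO2 did to lungs under high stretch. Frem1 and Itga8, both lower with stretch, were higher in hypercapnia, and Tcf21 was lower. The 3 genes that passed make 8.57% of the 35, against 5.56% of all genes. The 2 rises are 5.71%, against 2.49% of all genes, and the 1 fall is 2.86%, against 3.07%. No gene of the 35 separated the groups without overlap, where 0.176% of all genes were higher and 0.261% lower in that way. The high stretch normocapnia arrays also entered the comparison of stretch, so opposite signs for one gene in these comparisons are not independent of each other.

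Frem1 lay between 6.66 and 7.28 with a median of 6.87 in high stretch hypercapnia, against 6.31 to 6.87 with a median of 6.52 in high stretch normocapnia. The groups overlapped, and the change was 0.40 ± 0.09 (1.32-fold higher, adjusted p = 0.0046). Both stayed below the low stretch mice, which lay between 7.18 and 7.81 in hypercapnia and between 7.20 and 7.65 in normocapnia, apart from the highest high stretch hypercapnia values. Itga8 lay between 10.62 and 10.95 with a median of 10.71 in high stretch hypercapnia, against 10.21 to 10.71 with a median of 10.49 in high stretch normocapnia (change 0.25 ± 0.06, 1.19-fold higher, adjusted p = 0.0046).

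Tcf21 lay between 8.98 and 9.70 with a median of 9.28 in high stretch hypercapnia, against 9.42 to 10.00 with a median of 9.76 in high stretch normocapnia. It fell 1.32-fold (change -0.40 ± 0.10, adjusted p = 0.0109). At low stretch the hypercapnia values were 10.18, 9.42, 9.60, 9.10 and 9.69, against 9.74 to 10.09 in normocapnia, a change of -0.29 that did not pass (adjusted p = 0.527). Of the 5 groups, high stretch hypercapnia thus had the lowest mean of Tcf21, 9.30 ± 0.23, and non-ventilated mice the highest, 10.39 ± 0.16.

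The 32 genes that did not pass at high stretch had changes between -0.34 and 0.38, and the lowest adjusted p was 0.0618, for Col14a1 (change 0.20). Col14a1 passed without high stretch hypercapnia replicate 8 or 10 or high stretch normocapnia replicate 4, with adjusted p between 0.0221 and 0.0421, and Fgfr4 (change 0.29, adjusted p = 0.0844) passed without high stretch hypercapnia replicate 8 (0.0315). That array had a limma array weight of 0.446, where weights ran from 0.372 to 1.73 and 3 arrays in all were under 0.5. Without those 3 arrays, 5 genes passed here in place of 3, an alternative chosen after seeing the data. Meox2 spread widest in this group, between 5.98 and 7.53 with a median of 7.15, and replicates 8 and 10 held its lowest values of 6.24 and 5.98. Its change with CO2 was -0.34 (adjusted p = 0.186).

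In the wider lists, 4 of 17 TGF-beta signalling genes passed with CO2 at high stretch (23.5%, against 5.56% of all genes). Of these, 2 rose and 2 fell, led by the ligand Tgfb3 (0.30, adjusted p = 0.00355) and the receptor Tgfbr1 (-0.26, adjusted p = 0.000362). Among the other regulators of lung mesenchyme 2 of 27 fell (7.41%, against 3.07% of all genes), Pdgfb (-0.59) and the transcription factor Osr1 (-0.36). Tnc fell by 0.61 (adjusted p = 0.0108), the only matricellular gene of 19 that passed. Of 24 collagen modification genes, the prolyl hydroxylase P4ha3 fell by 0.24 and the procollagen protease Adamts14 rose by 0.23, and of 21 basement membrane and integrin genes Itga1 rose by 0.19. No other collagen chain, elastic fibre gene or other fibroblast marker passed, and none of the markers of other cells did.

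**Figure D4:**
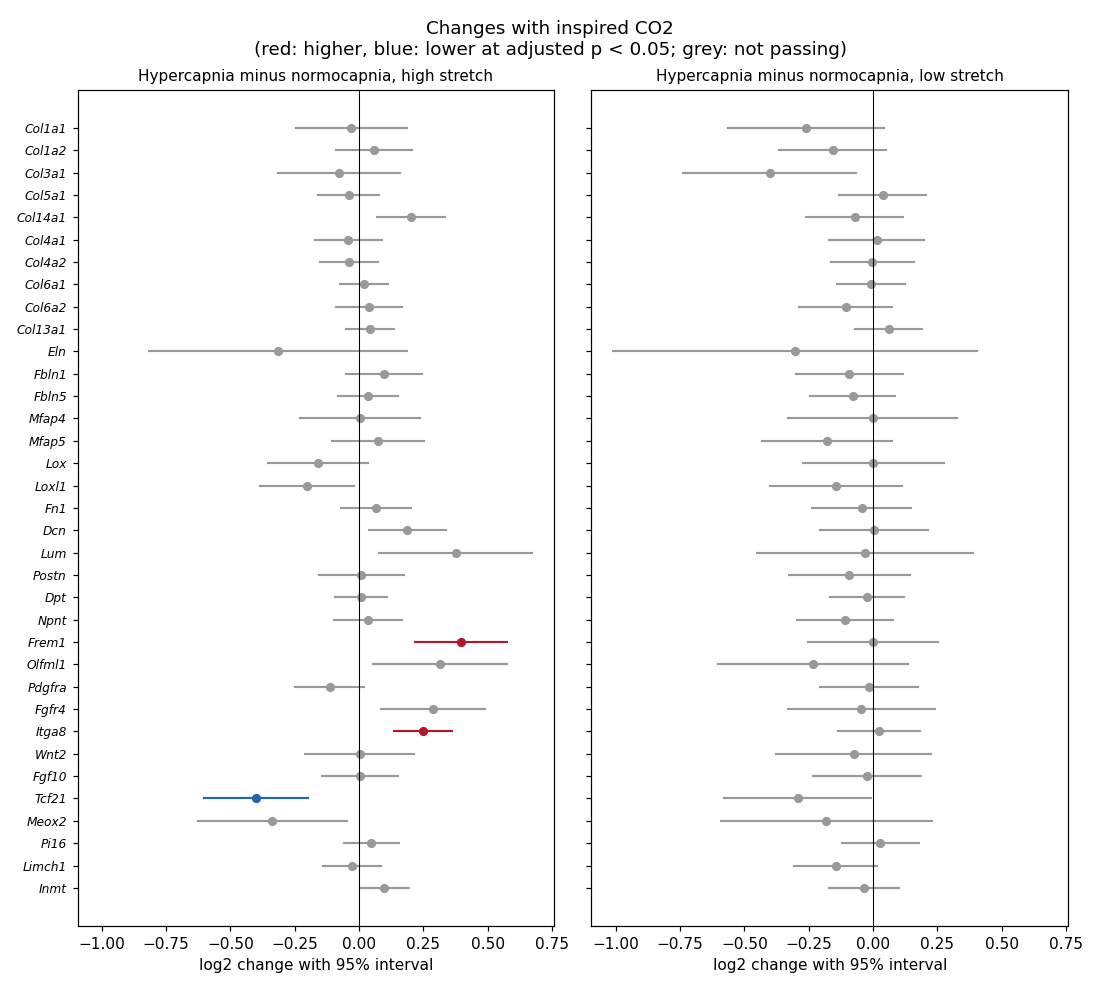
Log2 change of each of the 35 genes with hypercapnia and its 95% confidence interval from limma, at high stretch and at low stretch; red points passed higher, blue points passed lower and grey points did not pass. At high stretch Frem1 (0.40), Itga8 (0.25) and Tcf21 (-0.40) passed, and at low stretch none did.

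The fourth comparison asks the same of CO2 at low stretch. None of the 35 genes passed, against 0.115% of all genes in either direction, 0.0401% higher and 0.0752% lower. No gene of the 35 separated the groups, where 0.938% of all genes were higher and 1.08% lower without overlap. At an unadjusted p under 0.05, 2 of the 35 genes and 1839 of all genes (9.22%) were counted. Those 2 were the fibrillar collagen Col3a1 (change -0.40 ± 0.17, adjusted p = 0.412) and Tcf21. No gene of the wider lists passed. The changes of the 35 genes ran from -0.40 to 0.06, and with 5 mice a side the number of arrays limits what can be seen.

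Whether the CO2 change differed between high and low stretch was tested as an interaction. It passed for 0 of the 35 genes and 0 of all genes (0%), higher or lower. At an unadjusted p under 0.05 there were 4 of the 35 genes, Frem1, Olfml1, Col14a1 and Itga8, and 893 of all genes (4.48%). The difference of the CO2 changes was 0.40 for Frem1 (95% interval 0.09 to 0.71), 0.55 for Olfml1 (0.10 to 1.00) and 0.23 for Itga8 (0.03 to 0.42), with an adjusted p of 0.997 each. So the rises of Frem1 and Itga8 with CO2 at high stretch were not shown to be larger than the changes at low stretch.

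The fifth comparison asks what high stretch did where both groups breathed CO2. Loxl1 rose, and Meox2, Frem1 and Fgf10 fell. The 4 genes make 11.4% of the 35, against 10.1% of all genes. The 1 rise is 2.86%, against 5.43% of all genes, and the 3 falls are 8.57%, against 4.69%. No gene of the 35 separated the groups, where 1.84% of all genes were higher and 0.908% lower without overlap.

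Meox2 lay between 5.98 and 7.53 in high stretch hypercapnia, against 7.31, 7.93, 7.96, 7.65 and 8.26 in low stretch hypercapnia. The change was -0.81 ± 0.17 (1.76-fold lower, adjusted p = 0.0018), beside -0.66 in normocapnia. Frem1 lay between 6.66 and 7.28 in high stretch hypercapnia, against 7.21, 7.81, 7.18, 7.35 and 7.43 in low stretch hypercapnia. Only the lowest low stretch values were reached by high stretch mice, and the change of -0.47 ± 0.11 (adjusted p = 0.00387) stands beside -0.86 in normocapnia.

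Fgf10 lay between 6.61 and 7.21 with a median of 7.00 in high stretch hypercapnia, against 6.96, 7.52, 7.19, 7.41 and 7.61 in low stretch hypercapnia. The fall of 1.28-fold (change -0.36 ± 0.09, adjusted p = 0.00737) is close to that of -0.38 in normocapnia, and CO2 changed Fgf10 by 0.00 at high stretch. Loxl1 lay between 9.32 and 9.84 with a median of 9.64, against 9.06, 9.38, 9.01, 9.60 and 8.92 in low stretch hypercapnia (change 0.41 ± 0.11, 1.33-fold higher, adjusted p = 0.0124). Without low stretch hypercapnia replicate 5 the adjusted p was 0.0555 for Fgf10 and 0.0717 for Loxl1, and without replicate 3 it was 0.0528 for Loxl1.

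Olfml1, Itga8 and Fgfr4, which fell with stretch in normocapnia, had changes of -0.31 (adjusted p = 0.228), -0.09 (0.438) and -0.04 (0.872) in hypercapnia. The 31 genes that did not pass lay between -0.31 and 0.26, with a lowest adjusted p of 0.125, that of Tcf21 (-0.29). Tcf21 passed without low stretch hypercapnia replicate 4 (-0.42, adjusted p = 0.0209). The difference between the stretch changes in hypercapnia and in normocapnia is the same interaction as above, which passed for no gene.

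In the wider lists, 1 of 18 other fibroblast markers passed (5.56%, against 10.1% of all genes). It was Il33, which rose by 0.93 (adjusted p = 5.81e-05). Adh1 changed by -0.36 and did not pass (adjusted p = 0.172). The summed level of these markers overlapped, at 14.53 to 14.88 in high stretch hypercapnia and 14.60 to 14.86 in low stretch hypercapnia. Of 21 basement membrane and integrin genes, 4 rose (19%, against 5.43% of all genes) and none fell. The rises were led by Itga5 (0.51) and Itgb6 (0.48), the epithelial integrin chain that activates latent TGF-beta. TGF-beta signalling had 4 rises (23.5%, against 5.43% of all genes) and 2 falls (11.8%, against 4.69%) among 17, with Smad6 at -0.60 and Pmepa1 at 0.46. Tnc rose by 0.73. Among the other regulators of mesenchyme 4 of 27 fell (14.8%, against 4.69% of all genes), led by the receptors Fgfr3 (-0.30) and Fgfr2 (-0.29). Mfap2 fell by 0.35 and the procollagen protease Adamts3 by 0.15. Of 11 smooth muscle and pericyte markers, Tagln rose by 0.22, with a summed level of 12.84 to 13.16 in high stretch hypercapnia, against 12.84 to 13.23 in low stretch hypercapnia.

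Endothelial markers had 1 rise (11.1%, against 5.43% of all genes), Cldn5 (0.39), and 2 falls (22.2%, against 4.69%) among 9, with Egfl7 at -0.34. They summed to 14.27 to 14.40 in high stretch hypercapnia, against 14.13 to 14.50 in low stretch hypercapnia. Of 7 B cell markers 4 rose (57.1%, against 5.43% of all genes), led by Ms4a1 (0.54) and Cd79a (0.52). Their sums were 9.69 to 10.20 in high stretch hypercapnia, against 9.26 to 9.82 in low stretch hypercapnia. The alveolar epithelial marker Rtkn2 fell by 0.42. No marker of mesothelium, neutrophils or macrophages passed, and the part of these cells in the results was not tested.

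Of the 10 collagen chains, 9 passed in no comparison. The main chains of type I collagen, Col1a1 and Col1a2, had changes with ventilation of -0.06 and -0.05, with high stretch in normocapnia of -0.22 and -0.24, and with high stretch in hypercapnia of 0.01 and -0.02. Col3a1, which joins type I in the same fibrils, had -0.11, -0.30 and 0.03 in the same order, and Col5a1, which sets fibril width, had -0.13, -0.02 and -0.10. The network collagens of basement membranes, Col4a1 and Col4a2, which lie side by side on chromosome 8, had 0.20 and 0.15 with ventilation and 0.16 and 0.07 with high stretch in normocapnia. The adjacent chromosome 10 genes Col6a1 and Col6a2, for beaded filaments, stayed between -0.11 and 0.06 in the 5 comparisons of groups. Col13a1, a membrane collagen, lay between -0.11 and 0.06 there.

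Among elastic fibre genes, elastin itself was the most variable of the 35, with an SD within groups of 0.587, where the median gene had 0.17. Its change with ventilation was 0.21 with a 95% interval of -0.50 to 0.92, which holds changes of either sign. The elastic fibre assembly protein Fbln5 changed by -0.20 with ventilation and -0.03 with high stretch in normocapnia, and Fbln1 by -0.04 and -0.18. The microfibril-associated genes had -0.02 and 0.10 (Mfap4) and -0.30 and -0.12 (Mfap5).

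Of the proteoglycans that bind collagen fibrils, Dcn and Lum, neighbours on chromosome 10, changed by -0.14 and -0.36 with ventilation, and by 0.19 and 0.38 with CO2 at high stretch. Neither passed anywhere. Lum was second to Eln in spread, with an SD within groups of 0.347. Postn, a matricellular protein, and Dpt, which binds decorin, stayed between -0.10 and 0.10 in every comparison. Pdgfra, the receptor for platelet-derived growth factor on alveolar fibroblasts, changed by 0.20 with ventilation (adjusted p = 0.185) and 0.16 with high stretch in normocapnia (adjusted p = 0.192). Pi16, of adventitial fibroblasts, changed by 0.10 and 0.07, and Limch1, an actin-associated protein of alveolar fibroblasts, by -0.14 and -0.15. None of these passed.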

How the data were processed

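Total RNA of 35 mouse lungs was hybridised to Affymetrix whole-transcript arrays, 1 animal each. The deposited values are log2 signals that the authors made with RMA, and per the submitters' processing notes Affymetrix Expression Console and Partek were used, with versions and roles not given in the sources used here. Of 35557 probe sets, 21789 carried 1 symbol in the platform's gene table, 1621 several, and 12147 were not in it. The brightest single-symbol probe set stood for each of 19938 genes, of which 999 had more than 1. No level filter was applied.

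The 5 group means came from 1 limma 3.58.1 fit (lmFit, eBayes; R 4.3.3) that held every array, tested on simulated data. Tests were two-sided, and p was adjusted within each comparison by Benjamini-Hochberg over all genes, with 0.05 as threshold. Errors are SE for changes and SD for group means. The labels give no batch, date or pairing, and the number of arrays limits the precision.

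The genes, lists and tests were chosen with earlier results of these data known. Every gene that passed is named. Where more than 8 passed, values by array are given for the 4 largest rises and falls, where none passed the 2 with the smallest p are named, and from each list the 2 largest changes that passed are given. A planned comparison of collagen protein repeats was not made, since no protein sequences were used here. Alternatives were a fit on only the groups compared, the replicate block, eBayes with trend and robust options, the mean of all probe sets, genes above the median level, median centring, a second quantile normalization, array weights and leaving out each array.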

Additional observations from a re-analysis of the deposited data

Results flagged for a closer look

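In 15 of 175 combinations of gene and group, 1 array stood far from the others by Dixon's test, which chance does in about 1 of 20. The combinations share the same 35 arrays and several arrays recur, so they are not independent and the 15 cannot be read as an excess. They concern 12 genes, 6 of them collagen chains. In high stretch hypercapnia, replicate 8 was lowest for Col1a1 at 10.24 (next 10.71) and for Col3a1 at 9.90 (next 10.37). Replicate 2 of that group was lowest for Col6a1 at 9.70 (next 9.91) and for the microfibril gene Mfap4 at 10.14 (next 10.65), and replicate 10 for Fgf10 at 6.61 (next 6.90). In high stretch normocapnia, replicate 1 was lowest for Inmt at 12.98 (next 13.21).

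In low stretch hypercapnia, replicate 5 was lowest for Col5a1 at 7.65 (next 7.85) and highest for Itga8 at 11.11 (next 10.80). In low stretch normocapnia, replicate 1 was lowest for Col4a2 at 10.43 (next 10.59), Col5a1 at 7.50 (next 7.82) and Npnt at 11.03 (next 11.37). In the same group replicate 4 was highest for Col13a1 at 8.18 (next 8.02) and replicate 5 for Pdgfra at 12.22 (next 11.94). In non-ventilated mice, replicate 3 was lowest for Col3a1 at 10.64 (next 11.01) and for Col13a1 at 7.91 (next 8.15).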

How the results depend on the processing

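Counts of the 35 genes that passed mostly kept within 1.5 times of the reported count. With array weights, 14 genes passed for high stretch in normocapnia (9 reported) and 7 for hypercapnia at high stretch (3 reported). Calls among all genes rose as well, to 5030 (3646 reported) and 2052 (1109 reported). With only genes above the median level, 2 passed for high stretch in hypercapnia (4 reported), since lower genes were not tested. Without the 3 arrays of weight under 0.5, chosen after seeing the data, ventilation had 7, stretch had 10 in normocapnia and 4 in hypercapnia, and CO2 at high stretch had 5. Leaving out each array in turn gave 5 to 7 for ventilation (6 reported) and 6 to 10 for stretch in normocapnia (6 without low stretch normocapnia replicate 3). It gave 2 to 5 for stretch in hypercapnia (2 without low stretch hypercapnia replicate 5) and 3 to 5 for CO2 at high stretch (5 without high stretch hypercapnia replicate 8). Hypercapnia at low stretch and the interaction gave 0 in every alternative run.

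Same-numbered deviations correlated between -0.31 and 0.38. Differently numbered arrays were not correlated for comparison, so these values cannot decide whether replicate numbers pair the arrays. With the replicate block, 6 genes passed for ventilation, 6 for stretch in normocapnia, 3 for stretch in hypercapnia and 3 for CO2 at high stretch. The genes that no longer passed with the block were Col14a1 (adjusted p = 0.176), Fgfr4 (0.172) and Inmt (0.0893) for stretch in normocapnia and Loxl1 (0.0988) for stretch in hypercapnia. With median centring Col14a1 (0.0835) and Inmt (0.0516) did not pass in normocapnia.

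Over 34 changes of single genes, 804 alternative values included 28 that lost the threshold, 34 that gained it and 0 of opposite sign. Among all genes, ventilation gave 1385 calls with only the groups compared (2353 reported), hypercapnia at high stretch 2052 with array weights (1109), high stretch in hypercapnia 1269 with the replicate block (2017), and hypercapnia at low stretch 78 above the median level, 64 after a second quantile normalization and 0 with only the groups compared (23).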
